A study of Homo sapiens with 12 samples.

Results

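The hypoxia-inducible factor (HIF) subunits and the oxygen-sensing enzymes that control them were followed at the mRNA level in human embryonic stem cells (hESCs) of the line WA26. The members were taken by gene symbol: the alpha subunits HIF1A, EPAS1 and HIF3A, the beta subunits ARNT and ARNT2, the prolyl hydroxylases EGLN1, EGLN2 and EGLN3, the asparaginyl hydroxylase HIF1AN and the ubiquitin ligase adaptor VHL. All 10 symbols stood in the table of 28278 genes, and all 10 passed the filter on low counts that left 15916 genes for testing. There were 4 groups of 2 libraries. Wild-type (WT) and UBQLN1 knockout (KO) cells were each kept at 20% O2, and KO cells were also kept at 5% O2 or given the antioxidant N-acetylcysteine (NAC). UBQLN1 encodes ubiquilin 1, a shuttle factor that brings ubiquitinated proteins to the proteasome, and it was deleted with CRISPR/Cas9, after which WT and KO clones were picked. The clone behind each library, a vehicle for the untreated cells and separate cultures behind replicates are not named in the labels, so p-values here measure only the spread between these libraries. The labels do not give the time that cells spent at 5% O2 or with NAC before harvest, and the study's text describes both a short and a long culture, so 5% O2 and NAC may differ in exposure time. WT cells at 5% O2 or with NAC were not analysed here, so the 5% O2 and NAC comparisons were made within KO cells and share the KO libraries at 20% O2.

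HIF is a pair of basic helix-loop-helix PAS proteins, an oxygen-labile alpha subunit and a stable beta subunit. With oxygen, EGLN enzymes hydroxylate prolines of the alpha subunit, VHL binds the hydroxylated protein, and the ligase complex sends it to the proteasome, while HIF1AN hydroxylates an asparagine that blocks the recruitment of the coactivators CREBBP and EP300. When oxygen falls, the alpha protein is spared, and genes of glycolysis, iron handling and blood vessel growth are switched on, EGLN1 and EGLN3 among them as a known negative feedback loop. Control of the alpha subunit is thus largely at the protein level, which these mRNA counts did not measure.

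HIF binds a short core motif, and the promoters of EGLN1, EGLN3 and HIF1A are printed because the first pair rose at 5% O2 and the last is the main alpha subunit measured. Each window holds the 250 bases before the first annotated RefSeq start (GRCh38.p14), 5′ to 3′ on the strand of the gene. Capitals mark ACGTG or GCGTG, searched on both strands.

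EGLN1, chr1:231422288-231422537, minus strand: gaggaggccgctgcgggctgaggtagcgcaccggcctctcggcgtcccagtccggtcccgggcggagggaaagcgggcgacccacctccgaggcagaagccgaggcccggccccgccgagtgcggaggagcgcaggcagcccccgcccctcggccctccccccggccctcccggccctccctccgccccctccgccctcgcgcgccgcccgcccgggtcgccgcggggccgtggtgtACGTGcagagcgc

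EGLN3, chr14:33951075-33951324, minus strand: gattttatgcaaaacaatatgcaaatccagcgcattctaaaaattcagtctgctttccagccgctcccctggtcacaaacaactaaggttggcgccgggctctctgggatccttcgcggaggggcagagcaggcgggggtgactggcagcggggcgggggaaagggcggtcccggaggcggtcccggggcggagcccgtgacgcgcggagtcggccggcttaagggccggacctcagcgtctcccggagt

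HIF1A, chr14:61695263-61695512, plus strand: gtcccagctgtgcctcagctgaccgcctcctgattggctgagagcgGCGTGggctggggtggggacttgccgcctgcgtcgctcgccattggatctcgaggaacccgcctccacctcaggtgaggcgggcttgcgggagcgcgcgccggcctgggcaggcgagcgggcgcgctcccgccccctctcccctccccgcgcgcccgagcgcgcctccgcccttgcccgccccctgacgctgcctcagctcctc

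The EGLN1 window held 1 match, an ACGTG whose first base lay 13 bases before the start. No match stood in the EGLN3 window, and HIF1A had 1 GCGTG, 204 bases before the start. Among all 34943 RefSeq promoter windows of this length, 43.2% held at least 1 match and 18.5% held ACGTG. A match is a description of letters and not a bound site. The promoter table had entries for 8 of the members, not for ARNT2 or VHL.

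The libraries held 31236968 to 41639350 counts, and the chi-square between libraries of a group was 9.79 to 32.4 times its degrees of freedom, above counting error alone. UBQLN1 itself was at 221 and 197 CPM (counts scaled to library size, with factors from the trimmed mean of M-values, TMM) in WT and at 42.3 to 62.4 CPM in the 6 KO libraries, which checks the genotype labels (KO against WT log2 fold change -2.29 ± 0.12 SE, adjusted p = 2.52e-06 by edgeR). All 8 pluripotency markers examined had counts in every library, POU5F1, NANOG and SOX2 among them, with a summed level of 4374 to 5684 CPM. The first NAC library stood apart. There, all 9 mesenchymal and fibroblast markers had counts and summed to 946 CPM, against 514.5 to 629 CPM and 5 to 7 markers with counts in the other 7 libraries. DCN, a fibroblast proteoglycan, was at 47.2 CPM in that library and at 0 in the others. For the NAC results, values without that library are given below, and the part of these markers in them was not tested.

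Every member but EGLN2 was readily detected, and HIF1A led by a wide margin. Levels were set side by side as CPM per kilobase of merged exons (written FPKM), computed here from the counts and the exon lengths of GENCODE. In WT cells HIF1A was at 29.7 ± 2.6 FPKM (SD, n = 2). HIF1AN followed at 6.80 ± 0.24 FPKM and ARNT at 6.53 ± 0.30 FPKM, and this pair did not differ beyond the spread of the libraries. Below them came EGLN1 at 5.39 ± 0.32 FPKM and VHL at 4.32 ± 0.63 FPKM. EGLN3 at 2.80 ± 0.26 FPKM and ARNT2 at 2.63 ± 0.17 FPKM were within the spread of each other. The other alpha subunits were lowest, HIF3A at 1.43 ± 0.06 FPKM and EPAS1 at 1.05 ± 0.11 FPKM. This order depended on the length used. With the longest transcript of each gene in place of all its exons, ARNT stood at 8.94 ± 0.41 FPKM and HIF1AN at 7.30 ± 0.26 FPKM, and EGLN3 stood at 7.24 ± 0.67 FPKM and EGLN1 at 6.69 ± 0.39 FPKM in WT.

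Among the alpha subunits and among the beta subunits, one paralog held most of the mRNA. HIF1A made up 90.5% to 95.2% of the summed alpha subunit FPKM in the 8 libraries, and ARNT made up 68.5% to 76.9% of the beta subunit FPKM. The share of EGLN1 in the sum of EGLN1 and EGLN3 was 65.8% ± 3.4 in WT, 68.5% ± 2.1 in KO at 20% O2, 80.2% ± 1.1 in KO at 5% O2 and 74.3% ± 0.71 with NAC (SD, n = 2 each). Measured by longest transcripts, those means were 48.0%, 51.0%, 66.2% and 58.1%, so which of the pair was more abundant in WT cells depended on the length, while the order of the groups did not.

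**Figure D1:**
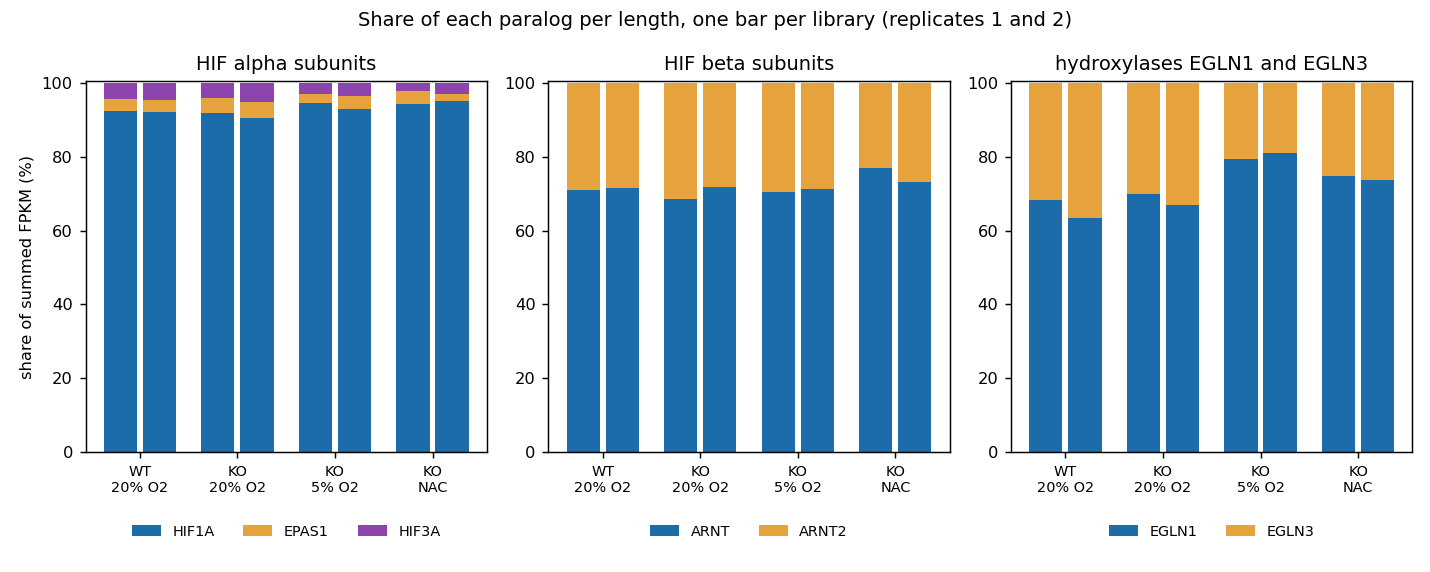
Share of each paralog (y axis, percent of the family's summed FPKM by merged exon length) in each library (1 bar each, 2 per group) for alpha subunits, beta subunits and the pair EGLN1 and EGLN3. HIF1A and ARNT fill most of their bars in every library, and the EGLN1 part is tallest in the KO libraries at 5% O2, with a mean of 80.2%.

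EGLN2 could not be read reliably. It had 2 to 19 counts per library, which is 0.0522 to 0.461 CPM, although it is a widely expressed oxygen sensor. Of its merged exon bases, 30.6% also belong to the readthrough gene RAB4B-EGLN2 on the same strand, and that gene was listed at 0 in all 8 libraries. By default featureCounts drops reads that fall on more than 1 gene, and how many reads of EGLN2 were lost in that way was not tested. No EGLN2 difference is read here.

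The first comparison asks how KO cells differ between 5% and 20% O2, where the study set out to lower oxidative damage. Of the 10 members, EGLN1 and EGLN3 were higher, VHL was lower and 7 were not called at an adjusted p under 0.05 (edgeR's quasi-likelihood test, Benjamini-Hochberg over all tested genes). That is 30.0% of the members, beside 7.81% of all 15916 tested genes (3.68% higher and 4.13% lower).

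EGLN1 (PHD2), the main HIF prolyl hydroxylase of most cells, rose more than any other member. KO libraries at 20% O2 were at 29.2 and 30.4 CPM and those at 5% O2 at 90.7 and 97.5 CPM. The WT libraries stood at 30.2 and 27.8 CPM, so both libraries at 5% O2 lay far above all others. The increase was 3.15-fold (log2 1.66 ± 0.11 SE, 95% interval 1.41 to 1.91, adjusted p = 2.08e-05 by edgeR), and it passed under each alternative setting and with each library left out. Over 55.8% of the EGLN1 exon bases, the annotation also places an unnamed gene on the same strand that has no row in the table.

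EGLN3 (PHD3), a hydroxylase known for its strong hypoxic induction, rose less. It was at 17.1 and 20.5 CPM at 20% O2 and at 31.9 and 31.3 CPM at 5% O2, with 17.0 to 22.0 CPM in the WT and NAC libraries. The groups did not overlap, and the increase was 1.68-fold (log2 0.75 ± 0.13 SE, adjusted p = 0.0119 by edgeR). EGLN3 was not called without the first or the second KO library at 20% O2, or the first at 5% O2. The log2 fold changes were then 0.62 to 0.88. Each such fit leaves 1 library in a group, and calls over all tested genes also became fewer.

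VHL, the substrate receptor of the ligase, was lower at 5% O2. Its levels were 33.9 and 32.8 CPM in KO at 20% O2, and 22.5 and 21.8 CPM in KO at 5% O2. The WT libraries had 19.4 and 23.8 CPM, so the KO libraries at 20% O2 were the highest and those at 5% O2 lay within the WT range. VHL fell by 0.59 on the log2 scale (SE 0.13, adjusted p = 0.0253 by edgeR). The call was lost when any of the 4 libraries compared was left out, with log2 fold changes of -0.61 to -0.56. Each such fit leaves 1 library in a group, and calls over all tested genes also became fewer. Of the 31-base words of the VHL transcript, 14.4% also stand on alternate scaffolds of hg38, and 23.5% of its exon bases overlap an unnamed gene on the opposite strand, so some of its reads are uncertain. The summed neuroectoderm markers were also highest in KO at 20% O2, at 472 and 498 CPM. They were at 263 and 334 CPM at 5% O2 and at 258 and 296 CPM in WT. With NAC the markers of this list were at 147 and 186 CPM, and VHL was at 28.9 and 24.0 CPM. The NAC and WT libraries were not compared by a test. That list has 6 genes, of which 4 to 6 had counts in a library, mostly NES, with PAX6 at 0 to 4 counts. Of the 4 genes tested, 1 (MAP2, means of 32.0 and 38.5 CPM) had a log2 fold change above 0 at 5% O2. The part of the list in the result was not tested.

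HIF1A mRNA showed no detectable difference between 5% and 20% O2. Its levels were 163 and 144 CPM at 20% O2 and 159 and 163 CPM at 5% O2. The values overlapped, and the log2 fold change was 0.07 with a 95% interval of -0.14 to 0.27 (adjusted p = 0.714 by edgeR). ARNT, the main beta subunit, was at 44.2 and 41.8 CPM and then at 42.4 and 41.9 CPM (log2 -0.03, interval -0.30 to 0.24). For ARNT2 the log2 fold change was -0.09 (interval -0.38 to 0.21), and for HIF1AN it was -0.12 (interval -0.32 to 0.08). The alpha subunit EPAS1 (HIF-2 alpha) was at 10.5 and 9.81 CPM at 20% O2 and at 5.99 and 9.32 CPM at 5% O2. HIF3A, whose products can restrain the other alpha subunits, was at 11.5 and 13.2 CPM and then at 7.90 and 9.75 CPM. Both had lower values in each library at 5% O2, and neither passed the test (log2 -0.41, adjusted p = 0.408, and log2 -0.49, adjusted p = 0.132, by edgeR). HIF3A, with the log2 value again at -0.49, was called lower in the fit of only the libraries compared (adjusted p = 0.0435) and without the first or the second NAC library (adjusted p = 0.0375 and 0.0405). Across tested genes, the log2 fold change at 5% O2 went with transcript GC content (Spearman's rho -0.33 over 15463 genes, which are not independent replicates). After each library's smooth dependence on transcript length and GC was taken out, HIF3A stood at -0.27 (adjusted p = 0.476 by edgeR). EPAS1 then stood at -0.26 (adjusted p = 0.687 by edgeR). In bulk RNA, fewer cells with a transcript and less transcript per cell cannot be told apart.

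**Figure D2:**
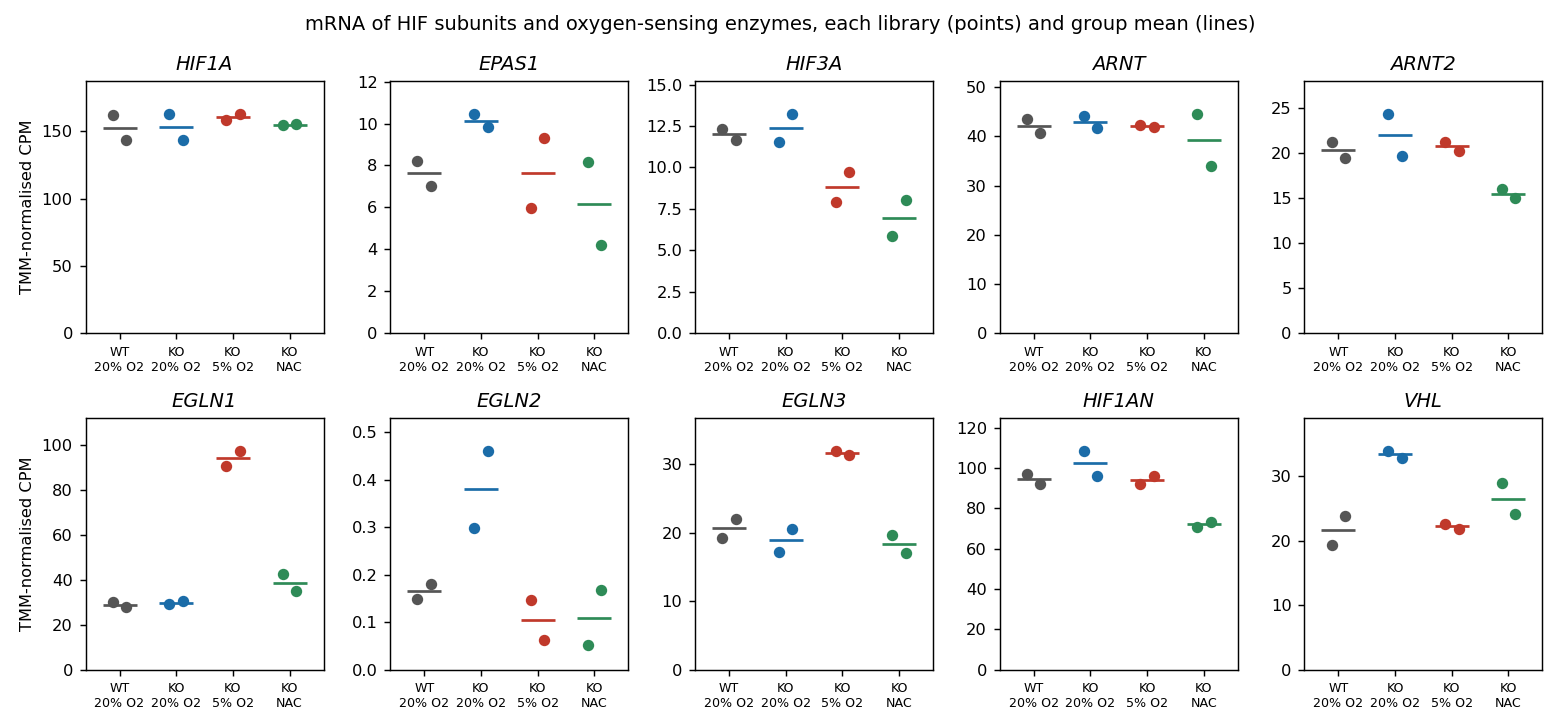
TMM-normalised CPM (y axis, from 0, own scale per gene) of each of the 10 members by group (x axis), with a point for each library and a line for the mean of 2. EGLN1 stands at 90.7 and 97.5 CPM at 5% O2 and at 42.4 CPM or below elsewhere, and HIF1A lies between 143 and 163 CPM in all libraries.

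The second comparison sets KO cells with NAC against untreated KO cells. EGLN1 was higher, HIF3A, ARNT2 and HIF1AN were lower, and 6 members were not called. This is 40.0% of the members beside 44.6% of all tested genes (23.8% higher, 20.8% lower), so the members changed about as often as genes in general.

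HIF1AN (FIH) had the smallest adjusted p among the members called lower by edgeR. It was at 109 and 96.1 CPM in untreated KO cells and at 70.8 and 73.2 CPM with NAC, without overlap. The log2 fold change was -0.51 ± 0.09 (SE, adjusted p = 0.000893 by edgeR), and without the first NAC library it was -0.49. HIF3A was at 11.5 and 13.2 CPM untreated and at 5.87 and 8.05 CPM with NAC (log2 -0.83 ± 0.19 SE, adjusted p = 0.00385 by edgeR, and -0.62 without the first NAC library). ARNT2, the beta subunit best known from the nervous system, went from 24.4 and 19.7 CPM to 16.1 and 15.0 CPM (log2 -0.51 ± 0.14 SE, adjusted p = 0.00982 by edgeR, and -0.56 without the first NAC library). Without the first untreated KO library, where it was highest, the ARNT2 value was -0.35 (adjusted p = 0.136).

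These 3 decreases depended on how base composition was treated. Across tested genes, the log2 fold change with NAC went with transcript GC content (Spearman's rho -0.49 over 15463 genes, which are not independent replicates). After each library's smooth dependence on transcript length and GC was taken out, HIF1AN stood at 0.01 (adjusted p = 0.915), ARNT2 at -0.06 (adjusted p = 0.768) and HIF3A at -0.36 (adjusted p = 0.168). HIF1A moved the other way. Its counts gave 155 and 156 CPM with NAC against 163 and 144 CPM without (log2 0.02, interval -0.19 to 0.22, and also 0.02 without the first NAC library), while with the trend removed it was lower, at -0.60 ± 0.09 (SE, adjusted p = 0.000878 by edgeR). The HIF1A transcript has 36.4% GC, the lowest of the 10, against 46.2% to 55.8% in the others. Between these fits with NAC, HIF1A was thus called only with the trend removed, and HIF1AN only without that removal. The other value of each could not be told from no change.

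EGLN1 was 1.30-fold higher with NAC, at 42.4 and 34.9 CPM against 29.2 and 30.4 CPM (log2 0.37 ± 0.11 SE, adjusted p = 0.0173 by edgeR). With the length and GC trend removed the value was the same, 0.37. Without the first NAC library it was 0.22 (adjusted p = 0.14), and the call was also lost without either untreated KO library. EGLN3 was at 19.6 and 17.0 CPM, within the range of the untreated libraries (log2 -0.04, interval -0.34 to 0.25, and -0.15 without the first NAC library).

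EPAS1, ARNT and VHL were not called with NAC but were called lower without the first NAC library. EPAS1, an alpha subunit that is abundant in endothelial and mesenchymal cells, was at 8.14 CPM in that library and at 4.21 CPM in the second. Against untreated KO cells its log2 fold change was -0.71 (adjusted p = 0.0651 by edgeR), and it was -1.27 (adjusted p = 0.00139) without the first NAC library and -0.32 (adjusted p = 0.312) without the second. ARNT was at 44.6 and 33.9 CPM with NAC, with a log2 fold change of -0.13 (adjusted p = 0.433) that became -0.34 (adjusted p = 0.0275) without that library. For VHL, at 28.9 and 24.0 CPM, the log2 fold change of -0.33 (adjusted p = 0.0611) became -0.47 (adjusted p = 0.0164). With all libraries kept, EPAS1 was called lower by DESeq2 (adjusted p = 0.0259) and with no filter (adjusted p = 0.00387). VHL was called lower by RLE scaling, by DESeq2 and under either other filter (adjusted p from 0.0346 to 0.0471). These genes were grouped by the calls gained without the first NAC library. That library was the higher of the pair in each, which follows from the grouping and is not a separate result. The part of the fibroblast markers in these values was not tested.

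The third comparison asks what the loss of UBQLN1 changed at 20% O2. VHL was higher in KO and no member was lower (0 by edgeR also at an unadjusted p under 0.05, and 0 by DESeq2), 1 of 10 members, beside 1.96% of all tested genes (1.34% higher, 0.622% lower). VHL stood at 19.4 and 23.8 CPM in WT and at 33.9 and 32.8 CPM in KO, a 1.54-fold difference (log2 0.63 ± 0.13 SE, adjusted p = 0.0357 by edgeR). The groups did not overlap. The call was lost under upper quartile normalization (0.60, adjusted p = 0.0501 by edgeR) and with the length and GC trend removed (0.59, adjusted p = 0.0534 by edgeR). It was also lost without any of the 4 libraries compared or either KO library at 5% O2 (0.49 to 0.79). These fits leave 1 library in a group, and calls over all tested genes also became fewer. HIF1A was at 162 and 143 CPM in WT and at 163 and 144 CPM in KO (log2 0.00, interval -0.20 to 0.21). The log2 fold change of EGLN1 was 0.04 (interval -0.21 to 0.29), that of EGLN3 -0.13 (interval -0.43 to 0.17) and that of HIF1AN 0.12 (interval -0.09 to 0.32). EPAS1 was at 8.21 and 7.03 CPM in WT and at 10.5 and 9.81 CPM in KO, which did not pass the test (log2 0.41, adjusted p = 0.483 by edgeR).

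Set directly against each other, 5% O2 and NAC differed in EGLN1, EGLN3, ARNT2 and HIF1AN, all higher at 5% O2. No member was lower at 5% O2 than with NAC, also at an unadjusted p under 0.05 or by DESeq2. The 4 are 40.0% of the members beside 29.1% of all tested genes (13.6% higher, 15.5% lower). EGLN1 was 2.43-fold higher at 5% O2 (log2 1.28 ± 0.11 SE, adjusted p = 9.52e-05 by edgeR) and EGLN3 1.73-fold higher (log2 0.79 ± 0.14 SE, adjusted p = 0.00175 by edgeR), and both differences stayed called with the length and GC trend removed and without either NAC library. Those of ARNT2 (0.42) and HIF1AN (0.38) were not called with the trend removed (0.19 and 0.14), where HIF1A was instead higher at 5% O2 (0.45, adjusted p = 0.00721). That of HIF1AN was also lost without the second KO library at 5% O2 (0.36), and that of ARNT2 without either library at 5% O2, the first WT library or the second NAC library (0.37 to 0.45).

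By the criteria of the study, a change of over 1 on the log2 scale with p under 0.05 before adjustment, EGLN1 was the only member called, at 5% against 20% O2 and at 5% O2 against NAC. Over all tested genes these criteria called 2.02% at 5% against 20% O2, 9.02% with NAC, 2.57% in KO against WT and 4.42% between 5% O2 and NAC.

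**Figure D3:**
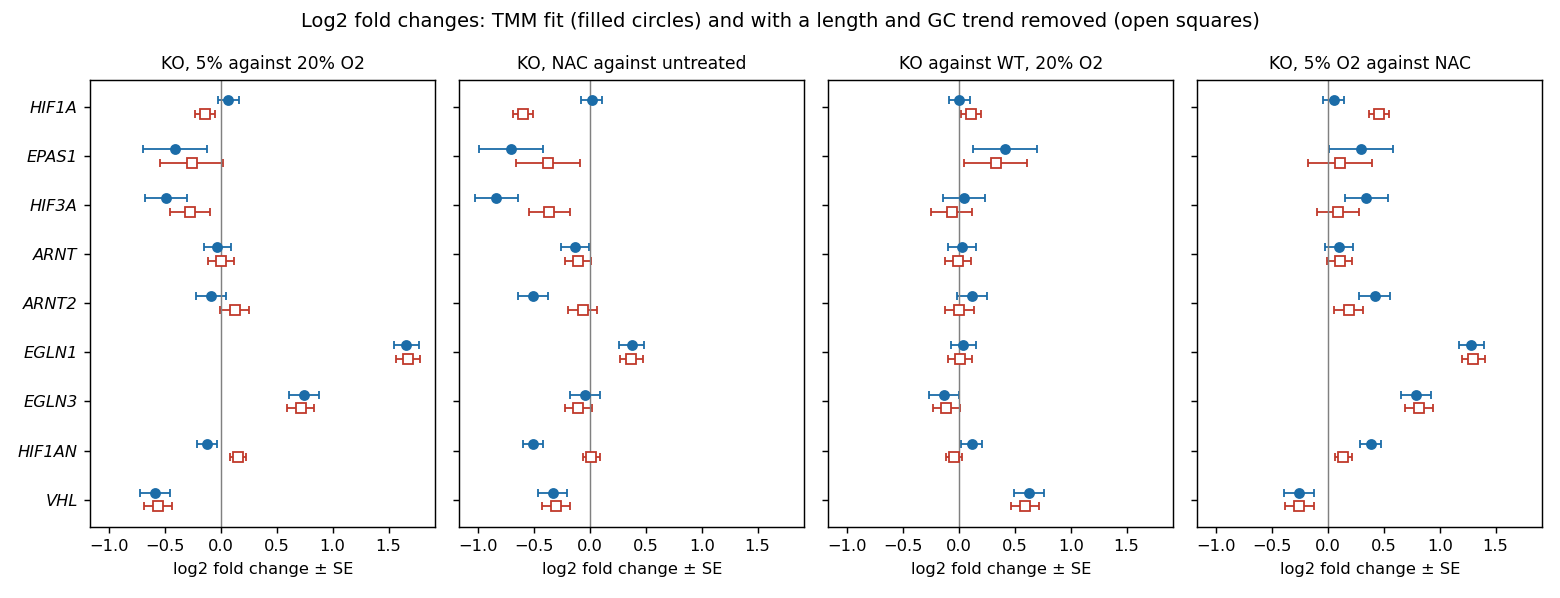
Log2 fold change ± SE (x axis) of 9 members (y axis, EGLN2 left out for its low counts) in the 4 comparisons, as fitted (filled circles) and with a trend on transcript length and GC content removed (open squares). The markers of EGLN1, EGLN3 and VHL nearly coincide in each panel, while with NAC those of HIF1A (0.02 and -0.60) and HIF1AN (-0.51 and 0.01) lie apart.

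The wider pathway was described with gene lists that were written with earlier results of these data known, so their counts are descriptions. Of 36 HIF target genes, 22 were higher and none lower at 5% O2. That is 61.1% called, beside 7.81% of all tested genes (3.68% higher, 4.13% lower). All 36 had a log2 fold change above 0, with a median of 1.25 against 0.00 over all tested genes. DDIT4, an inhibitor of mTORC1 signalling, was at 17.3 and 17.4 CPM at 20% O2 and at 186 and 189 CPM at 5% O2 (log2 3.43, adjusted p = 0.0193). PDK1, a pyruvate dehydrogenase kinase, went from 12.3 and 11.5 CPM to 103 and 91.8 CPM (log2 3.04). BNIP3, a mitophagy receptor, went from 68.9 and 78.3 CPM to 445 and 405 CPM (log2 2.53). The glucose transporter SLC2A1 (log2 2.10), the glycolytic enzymes LDHA (2.03) and PGK1 (2.02), the glycolysis regulator PFKFB4 (2.0) and the transcriptional repressor BHLHE40 (2.0) complete the largest called increases. Against these targets, the rise of EGLN1 (1.66) was above the list median and that of EGLN3 (0.75) below it.

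With NAC, 17 of the 36 targets were higher and 3 (KDM4B, HK2 and AK4) were lower, with a median of 0.44 against 0.02 over all tested genes. That is 55.6% of the targets called, beside 44.6% of all tested genes (23.8% higher, 20.8% lower). The counts and the median moved with the first NAC library: DDIT4 was at 163 CPM there and at 15.2 CPM in the second, and BNIP3 at 151 and 76.8 CPM. Without it 12 targets were higher and 6 lower with a median of 0.07, and without the second NAC library 24 were higher and 3 lower with a median of 0.70. With all libraries kept and the length and GC trend removed, 15 targets were higher and 1 lower with NAC. At 5% against 20% O2, 23 were then higher and 0 lower. In KO against WT only AK4 was called, higher (log2 0.47, adjusted p = 0.0491 by edgeR), and the median was -0.07. This is 2.78% of the targets, near the 1.96% of all tested genes. None was lower there, with 4 lower at an unadjusted p under 0.05 and 1 by DESeq2. With the trend removed, 0 targets were higher and 0 lower in KO against WT. Between 5% O2 and NAC, 20 were higher at 5% O2 and none lower, with a median of 0.69. The 20 are 55.6% of the targets, beside 29.1% of all tested genes (13.6% higher, 15.5% lower).

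Among 7 listed partners of VHL or of its ligase, not all of them subunits, 2 were higher at 5% O2. These were RBX1, the RING subunit of the ligase (log2 0.50), and VBP1, a VHL-binding prefoldin subunit (0.39). They are 28.6% of the partners, beside 7.81% of all tested genes (3.68% higher, 4.13% lower). The median of the partners was 0.35. With NAC, 6 were higher and USP20, a deubiquitinase, was lower (-0.55), beside 44.6% of all tested genes called (23.8% higher), and the counts were also 6 and 1 without the first NAC library. The increases with NAC were in ELOB, ELOC, CUL2, RBX1, NEDD8 and VBP1 (0.45 to 1.20), opposite in sign to VHL itself (-0.33, not called). With the length and GC trend removed, 1 partner was higher at 5% O2, and 5 were higher and none lower with NAC. In KO against WT, edgeR called 0 (with an unadjusted p under 0.05, 2 lower, and by DESeq2, 1 lower). RBX1 was at 74.9 and 72.7 CPM in untreated KO cells, at 112 and 97.3 CPM at 5% O2 and at 175 and 164 CPM with NAC.

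Of 14 regulators of HIF protein stability, RACK1, a scaffold that competes with HSP90 for the alpha subunit, was the only edgeR call at 5% O2 (higher, 0.36). That is 7.14% of the list, near the 7.81% of all tested genes. DESeq2 called 2 higher there, and 0 were called higher with the trend removed. With NAC 6 were higher and 4 lower, beside 44.6% of all tested genes called. The counts were 4 and 1 once the trend was removed, and 3 and 4 without the first NAC library. In KO against WT edgeR called 0 of them, and 2 were higher and 2 lower at an unadjusted p under 0.05, with 0 by DESeq2. Of 8 transcriptional cofactors, the coactivators CREBBP (-0.71, adjusted p = 0.00918 by edgeR) and EP300 (-0.46, adjusted p = 0.0394 by edgeR) were lower at 5% O2. They are 25.0% of the list, beside 7.81% of all tested genes (4.13% lower). CREBBP was at 129 and 119 CPM in untreated KO cells, 67.7 and 84.5 CPM at 5% O2, 38.8 and 43.8 CPM with NAC, and 83.3 and 77.4 CPM in WT. It was thus highest in untreated KO cells, as VHL was, and it was the only cofactor that edgeR called in KO against WT (higher, 0.63). That is 12.5% of the list, beside 1.96% of all tested genes. DESeq2 called 2 higher there, and 0 were called higher with the trend removed. Neither coactivator was called at 5% O2 with the length and GC trend removed, while with NAC 5 cofactors were lower and 1 higher in either analysis, and 4 and 1 without the first NAC library. The cofactors that edgeR called with NAC are 75.0% of the list, beside 44.6% of all tested genes (23.8% higher, 20.8% lower). Of 11 other bHLH-PAS proteins, 9 passed the filter. None was called at 5% O2 or in KO against WT by edgeR (0 also at an unadjusted p under 0.05 and by DESeq2). With NAC, BMAL2 was the only edgeR call (higher, 0.37), with 0 calls once the trend was removed. That is 11.1% of those tested, beside 44.6% of all tested genes. Without the first NAC library, 1 of these proteins was higher and 2 were lower.

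**Figure D4:**
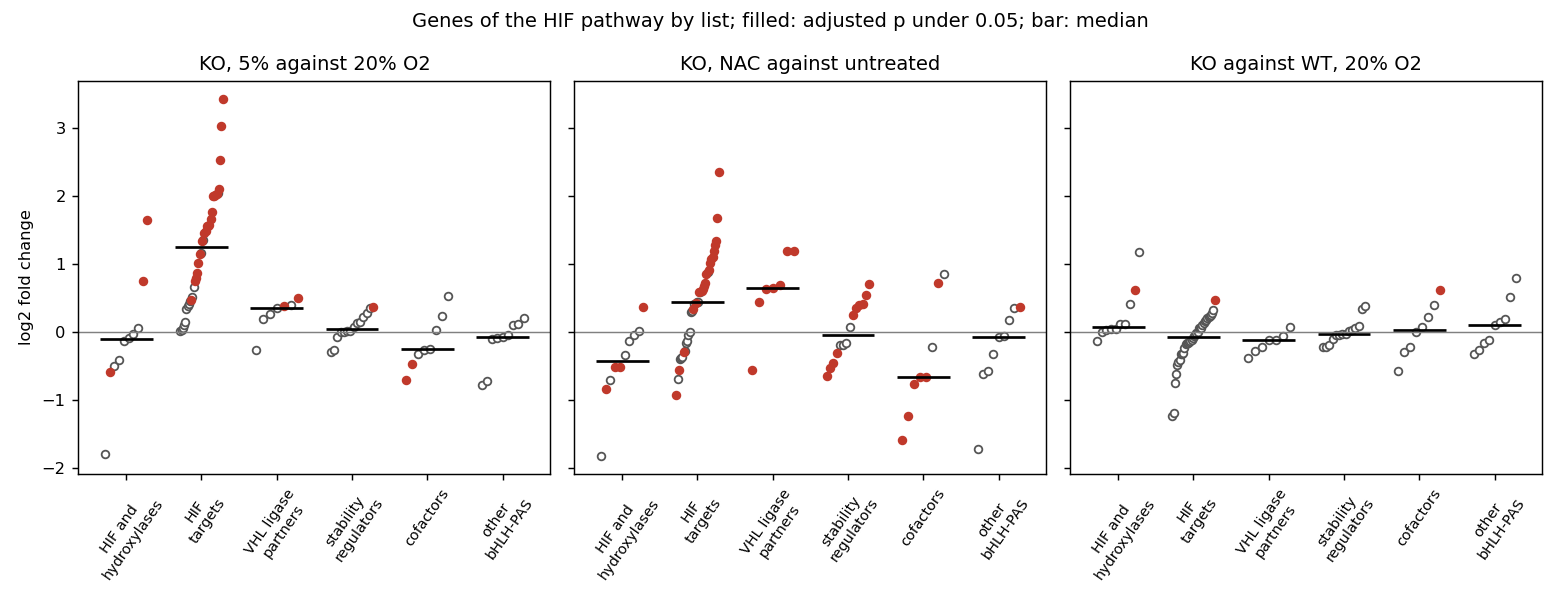
Log2 fold change (y axis) of each tested gene of 6 lists (x axis) in 3 comparisons, with filled points for an adjusted p under 0.05 by edgeR and a bar at the median of the list. At 5% O2 all 36 HIF targets lie above 0 with a median of 1.25, and in KO against WT the target median is -0.07.

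The genes whose log2 CPM went most closely with each of 4 members over the 8 libraries were also listed, as a description over libraries that share 4 groups and depth. For EGLN1 they were LDHA (Pearson's r 0.995), TPD52 (0.989) and BNIP3 (0.984), 2 of which are HIF targets of the list. For EGLN3 they were ANKZF1 (0.968), FGF11 (0.963) and LINC00458 (0.962). HIF1A, which varied little, had RBL1 (0.931) and STRN3 (0.91) among them. EPAS1 had KAZN (0.979), EHD2 (0.975) and SOCS7 (0.968). Antisense transcripts of HIF1A were near absent: HIF1A-AS1 had 0 to 10 counts per library, and HIF1A-AS2 and HIF1A-AS3 had 0 to 4. Counting at default parameters ignored strand and dropped reads that fall on several genes. Reads where HIF1A-AS1 or HIF1A-AS3 overlap HIF1A (2.58% and 5.8% of its exon bases) would thus be dropped and not assigned to either gene. VHLL, the VHL-like retrogene, was listed at 0 in all libraries.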

How the data were processed

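RNA was measured by bulk RNA-seq (TruSeq libraries) in WA26 hESCs. The authors used trim-galore for trimming, hisat2 for alignment to hg38 and featureCounts for counting, at default parameters that ignore strand and drop multi-mapping and ambiguous reads. The annotation used for counting is not given in the sources used here. The authors deposited unnormalized read counts for each gene. Per the submitters' notes, FastQC 0.11.9 was also used. Of 12 labelled samples, 8 libraries were analysed, and WT cells at 5% O2 or with NAC were not analysed here.

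Genes were filtered with filterByExpr (minimum count 10), scaled by TMM and compared by quasi-likelihood F-tests (edgeR 4.0.16, R 4.3.3) using one mean per group, 4 residual degrees of freedom and Benjamini-Hochberg adjustment over 15916 genes. A call is an adjusted p under 0.05. The biological coefficient of variation was 13.7%. FPKM were computed from GENCODE exon lengths. Levels of each gene are TMM-scaled CPM, and means are over 2 libraries.

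Alternatives were RLE and upper quartile scaling, DESeq2 1.42.0, no filter, at least 10 counts in every library, a replicate block, only the libraries compared, the criteria of the study (absolute log2 fold change over 1 and unadjusted p under 0.05), removal of a length and GC trend (mgcv 1.9.3, spline basis 10), and leaving out each library. Length and GC were known for 97.2% of tested genes. On simulated counts with 200 genes changed 4-fold, 168 were recovered and 10 unchanged genes were called among 15686 tested. The called changes of the members were smaller than 4-fold, so recovery of changes of their size was not tested.

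The members and lists were chosen with earlier results of these data known. Named genes are all members, up to 5 called genes per list with the largest change at 5% O2 (8 for HIF targets), overlapping and antisense transcripts, and the 3 most correlated genes averaging at least 1 log2 CPM (prior count 2). Calls from the lists in the NAC and genotype comparisons, and genes named for the library that stands apart or as a marker, were chosen after their values were seen. Some genes that these rules name are not reported here. Precision is limited by 2 libraries per group.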

Additional observations from a re-analysis of the deposited data

How the results depend on the processing

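Scaling alone changed few calls, while 1 library or a length and GC trend changed several. At 5% against 20% O2, 2 members were higher and 1 lower. The counts were 1 and 0 by the criteria of the study, 2 lower with only the libraries compared, and 0 lower with the replicate block and the trend removed together. With NAC, 1 was higher and 3 lower. By the criteria of the study both counts were 0, and with only the libraries compared 0 were higher. By DESeq2 and with no filter, 5 were lower. With the trend removed, with or without the block, 1 was lower. That member was HIF1A, while HIF3A, ARNT2 and HIF1AN lost the call. In KO against WT, 1 was higher, and 0 under upper quartile scaling, the criteria of the study, the trend removed, and the block with the trend removed. Between 5% O2 and NAC, 4 were higher, and 1 by the criteria of the study. Leaving out a library leaves 1 in its group. At 5% against 20% O2 and in KO against WT, fits without a compared library also called fewer genes over all. With each library left out in turn, members called at 5% O2 ran from 1 to 2 higher and 0 to 2 lower, with NAC from 0 to 1 higher and 2 to 6 lower, in KO against WT from 0 to 1 higher and 0 to 0 lower, and between 5% O2 and NAC from 2 to 5 higher and 0 to 1 lower.

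HIF1A and HIF1AN with NAC changed direction with a call on 1 side, both with the length and GC trend removed. On the side without a call, the value could not be told from no change, so these are not opposed effects. HIF1A went from 0.02 to -0.60, or -0.59 with the block, and HIF1AN from -0.51 to 0.014, also 0.014 with the block. Of the values of single members under an alternative, 607 kept direction and side of the threshold, 40 changed sign without a call on either side, 46 lost the call, 18 gained it and 4 changed direction with a call on one side. With the trend removed, the sign changes without a call at 5% against 20% O2 were in HIF1A (-0.14), HIF1AN (0.15), ARNT2 (0.13) and ARNT (0.00), and RLE scaling gave -0.01 for HIF1A with NAC. The cause of these changes was not tested.

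Libraries with the same replicate number showed little shared deviation across genes (correlations of deviations from group means of -0.0226 to 0.0816). Whether they share a clone or a batch was not tested. The replicate block changed no count of members, and over all genes at 5% O2 it gave 676 higher and 741 lower, against 586 and 657. DESeq2 called 1081 and 1063 there, no filter 1039 and 1181, only the libraries compared 1466 and 1543, and the trend removed 330 and 74, which also moved the split towards higher. In KO against WT, 213 and 99 became 545 and 315 by DESeq2, 782 and 470 with no filter, 738 and 386 with only the libraries compared, and 99 and 99 with the trend removed.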
